A study of Mus musculus with 27 samples.

Results

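The 8 genes described here encode the albumin family and other abundant plasma carriers that hepatocytes secrete: Alb, Afp, Gc, Ttr, Tf, Rbp4, Ambp and Ahsg. They were taken by gene name from a table of 21850 named features, which holds 7 of the 8 under those names. Transferrin was found through its RefSeq synonym: the table lists it as Trf, and it is called Tf here. All 8 were counted in 27 bulk RNA-seq libraries from mouse liver cells, 3 for each of 9 conditions, with totals between 30289364 and 65348596 counts.

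The conditions were freshly isolated hepatocytes, hepatocyte organoids (HepOrgs) and periportal assembloids, all from adult C57BL/6 mice. HepOrgs, labelled wild type and at passage 2, had spent 7 or 14 days in the expansion medium HM-Wnt or in the minimal medium MM. Assembloids combined 10 HepOrgs with 1000 cholangiocytes and either 250 portal mesenchymal cells (homeostatic) or 2500 (fibrotic-like), and had spent 7 or 18 days in MM. Their cholangiocytes came from mice with a nuclear tdTomato and their SCA1+ mesenchyme from PDGFRα-H2B-GFP mice. The third fresh library is wild type by its title and MDR2-het by its genotype field, and the calls among the 8 genes that are lost without it are named below. The labels give no animal for any library, so p-values measure the spread between these libraries.

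Albumin carries fatty acids, bilirubin and many drugs, and sets most of the osmotic pressure of plasma. Its relatives arose by gene duplication and sit in 1 cluster: α-fetoprotein (Afp) is the main albumin-like protein of fetal plasma and is silenced in the liver after birth, and Gc carries vitamin D and binds free actin. Transthyretin (Ttr) carries thyroxine and forms a complex with retinol-binding protein 4 (Rbp4), which carries retinol from liver to tissues. Transferrin (Tf) carries iron, Ambp is the precursor of α1-microglobulin and bikunin, and Ahsg (fetuin-A) binds calcium phosphate. Hepatocytes transcribe these genes from promoters bound by liver-enriched factors such as HNF4, FOXA and C/EBP proteins.

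On GRCm39, Alb (ENSMUSG00000029368) lies at chr5:90608647-90624696 on the plus strand, and Afp (ENSMUSG00000054932) starts 13887 bases after its end, at chr5:90638584-90656766 on the same strand. Gc (ENSMUSG00000035540) lies on the minus strand of the same chromosome at chr5:89561689-89605757. Apart from Ttr, whose place is given with its levels, the other genes are Tf (ENSMUSG00000032554) at chr9:103081200-103107814, Rbp4 (ENSMUSG00000024990) at chr19:38105066-38113754, Ambp (ENSMUSG00000028356) at chr4:63061512-63073036 and Ahsg (ENSMUSG00000022868) at chr16:22710027-22718201. Rbp4 overlaps Ffar4 on the other strand, and Afp, Gc, Ttr, Tf and Ahsg each overlap at least 1 lncRNA gene. The libraries do not keep the strand, so counts of overlapping genes cannot be told apart.

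The promoters of the linked family members Alb, Afp and Gc are shown because they hold the same short motif. Against fresh hepatocytes the fitted changes by counts were rises for Afp and falls for Alb and Gc in each HepOrg condition. The part of the motif in these levels was not tested. The motif GTTAATNAT is in capitals. It was spelled out after these promoters had been read. Each sequence is the 150 bases before the RefSeq start, on build GRCm38.p6, from chr5:90460720-90460869 (plus strand) for Alb, chr5:90490564-90490713 (plus) for Afp and chr5:89457899-89458048 (minus) for Gc.
Alb: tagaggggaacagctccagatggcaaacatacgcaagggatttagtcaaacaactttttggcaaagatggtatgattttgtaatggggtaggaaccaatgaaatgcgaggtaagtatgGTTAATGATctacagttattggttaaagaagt
Afp: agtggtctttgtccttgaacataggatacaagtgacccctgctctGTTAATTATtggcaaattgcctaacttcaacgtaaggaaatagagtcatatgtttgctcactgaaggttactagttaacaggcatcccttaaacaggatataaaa
Gc: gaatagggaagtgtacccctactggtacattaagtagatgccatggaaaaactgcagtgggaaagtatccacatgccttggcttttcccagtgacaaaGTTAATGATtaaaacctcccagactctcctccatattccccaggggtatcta
The first base of the motif is at position -32 in Alb, -105 in Afp and -52 in Gc, counted back from the start. Searched on both strands over 250 bases, it was in 242 of 32851 RefSeq promoter windows (0.737%). The windows of Rbp4, Ambp and Ahsg held none, and Ttr and Tf had no window in the table. CCAAT was in 33.8% of windows, among them those of Alb, Afp, Gc and Ambp and 1 of the 2 windows of Rbp4. In Afp the CCAAT match, on the minus strand, overlaps the end of the capitals. TATAAA was in 12.4% of windows, among them Afp's (positions -7 to -2) and 1 of Rbp4's, and in neither Alb's nor Gc's. All these positions and windows depend on the annotated RefSeq start, which was not checked against these reads.

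Before the comparisons, the libraries themselves were checked. The 8 genes took between 5.26% and 20.9% of all counts in 25 libraries, but 0.544% in the second homeostatic assembloid library at 1 week and 1.54% in the third fibrotic-like library at 1 week. These are called the low-carrier libraries. In the first of them 8 hepatocyte markers summed to 2301 CPM (counts per 1000000, with library sizes scaled by the trimmed mean of M-values, TMM) and 6 cholangiocyte markers to 5789, and in the second to 2489 and 4584. The 10 other assembloid libraries held 8236 to 85708 CPM of hepatocyte markers and 73.3 to 4261 of cholangiocyte markers. Fresh hepatocytes held 42.9 to 206.9 CPM of 8 endothelial markers and 47.3 to 490.8 of 10 immune markers. HepOrgs held 1.34 to 3.86 CPM of the endothelial markers and 7.54 to 820.3 of the immune ones. The 820.3 belonged to the third MM library at 2 weeks, which was above every fresh library. The other HepOrg libraries held 7.54 to 76.2 CPM of the immune markers. The cholangiocyte markers were higher in HepOrgs, at 51.5 to 197.0 CPM, than in fresh hepatocytes, at 12.1 to 28.6. Mesenchymal markers summed to 36.1 to 234.2 CPM in HepOrgs and to 6.76 to 46.7 in fresh hepatocytes, with overlap. The part of these other cells in the differences from fresh hepatocytes was not tested. In bulk libraries, fewer cells of a type and less RNA per cell cannot be told apart.

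**Figure D1:**
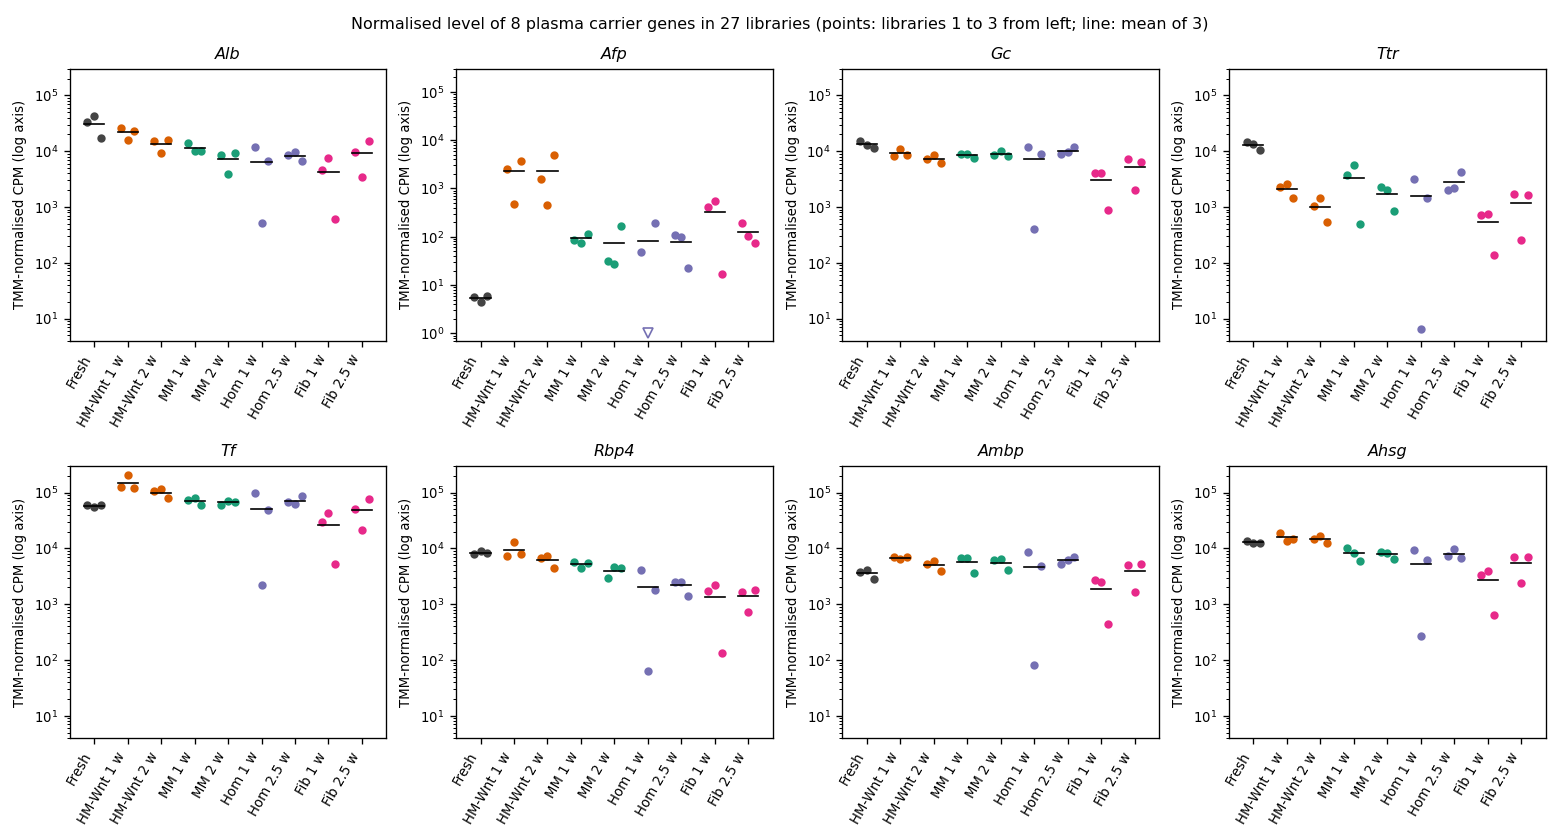
TMM-normalised CPM (log axis) of each of the 8 genes in 27 libraries, by condition; each point is 1 library and each line the mean of 3. By mean Afp is lowest in fresh hepatocytes (4.55 to 6.03 CPM) and highest in HM-Wnt HepOrgs, Ttr is highest in fresh hepatocytes, and the low-carrier libraries sit below the others of their condition; the open triangle stands for 0 counts of Afp in the second homeostatic library at 1 week and is drawn at 1.

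Afp was the member that differed most between conditions. Fresh hepatocytes held 5.62, 4.55 and 6.03 CPM of Afp, from 211, 104 and 198 counts. HM-Wnt HepOrgs held 2533, 469.7 and 3737 CPM at 1 week and 1546, 443.9 and 4988 at 2 weeks. Every HM-Wnt library was thus above every fresh one, and the second library of each time was well below the other two. Against fresh hepatocytes Afp rose by a log2 fold change of 8.64 ± 1.17 (SE, n = 3 per group, adjusted p = 6.04e-05 by edgeR's quasi-likelihood test with Benjamini-Hochberg adjustment) at 1 week and by 8.69 ± 1.18 (adjusted p = 5.08e-05) at 2 weeks. At these times 49.7% and 51.8% of the 13405 genes tested passed the same threshold in either direction.

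In MM, Afp stood between these levels. It was at 87.1, 73.1 and 115.9 CPM after 1 week and at 32.0, 27.4 and 164.1 after 2 weeks, above every fresh and below every HM-Wnt library. The log2 fold change against fresh hepatocytes was 4.05 ± 0.96 (adjusted p = 0.00429) at 1 week, when 42.8% of genes were called, and 3.75 ± 0.94 (adjusted p = 0.00655) at 2 weeks, when 39.7% were. Set against HM-Wnt at the same time, Afp fell by 4.61 ± 1.05 (log2, adjusted p = 0.0407) at 1 week and by 4.93 ± 1.06 (adjusted p = 0.0145) at 2 weeks. It was the only one of the 8 genes called in either medium comparison, where 2.98% and 11.5% of 12989 genes were called and 1.22% and 4.61% fell. These calls rest on few libraries: leaving out any 1 of 5 of the 6 libraries at 1 week gave adjusted p from 0.0621 to 0.156, and leaving out the first or second MM library at 2 weeks gave 0.0653 and 0.066. Within each medium and time the second library was the lowest for Afp in all 4 HepOrg conditions. With the replicate number as a block, a fit described below, the log2 change of Afp was -4.10 (adjusted p = 0.00395) at 1 week. At 2 weeks it was -4.78 (adjusted p = 0.000531). Leaving out libraries was not tried in the blocked fit.

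The ratio of Afp to its neighbour Alb was also read within each library, where scaling has no part. Fresh hepatocytes held 0.108 to 0.355 counts of Afp per 1000 counts of Alb. HM-Wnt HepOrgs held 29.4 to 316.6, and MM HepOrgs 3.82 to 18.0. In the fibrotic-like assembloids of 1 week the ratio was 88.1, 69.7 and 28.2, above the 6.23, 7.36 and 11.5 of MM HepOrgs of the same age. Homeostatic assembloids of that age gave 3.98 and 28.9, and in their low-carrier library Afp had 0 counts beside 28205 of Alb. Read sampling alone would allow up to 0.106 (3 counts). In that library 8 of the 14 factor genes read below were also at 0, so this 0 sets no firm upper bound.

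Alb itself was highest in fresh hepatocytes by CPM. It was at 34069.9, 42216 and 16961 CPM there, at 26398, 15972 and 22983 in HM-Wnt after 1 week and at 14985, 9370.05 and 15757 after 2 weeks. In MM it was at 13984, 9932 and 10104 CPM after 1 week and at 8388, 3898 and 9122 after 2 weeks. The fresh libraries overlapped those of HM-Wnt at 1 week and no other HepOrg condition. Alb fell by 1.25 ± 0.39 (log2, adjusted p = 0.0165) in HM-Wnt at 2 weeks, by 1.47 ± 0.39 (adjusted p = 0.0092) in MM at 1 week and by 2.12 ± 0.40 (adjusted p = 0.0011) in MM at 2 weeks, and its change of -0.56 ± 0.39 in HM-Wnt at 1 week was not called (adjusted p = 0.249). The call at 2 weeks in HM-Wnt was lost without the second fresh library or without the second HM-Wnt library (adjusted p = 0.0664 and 0.0675). Alb was about as high in HM-Wnt at 1 week as in fresh hepatocytes by the authors' TPM (transcripts per 1000000), 9059.9 ± 3268 against 8862 ± 3311 (SD, n = 3).

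Gc, the third member of the cluster, was lower in every HepOrg library than in every fresh one. It was at 15040.5, 13037 and 11586 CPM in fresh hepatocytes and between 6088 and 10929 in the 12 HepOrg libraries. The fall was 0.58 ± 0.21 (log2, adjusted p = 0.0357) and 0.90 ± 0.21 (adjusted p = 0.0031) in HM-Wnt at 1 and 2 weeks and 0.66 ± 0.21 (adjusted p = 0.0233) in MM at 1 week. In MM at 2 weeks the change was -0.54 ± 0.21 (adjusted p = 0.0585). Leaving out 1 library ended the calls at 1 week: without fresh library 1 or 2 or HM-Wnt library 1 or 3 in HM-Wnt (adjusted p from 0.0581 to 0.141), and without fresh library 1 or MM library 3 in MM (0.101 and 0.0828). By TPM the falls were near 0, with log2 changes of -0.05, -0.08 and -0.03 and none called. On that scale the median gene was 0.40 to 0.68 (log2) higher in HepOrgs than in fresh hepatocytes, against -0.01 to 0.03 in the count fit. The calls there were mostly higher, 4160 genes against 1280 lower in HM-Wnt at 1 week, where the count fit called 3341 higher and 3325 lower. Changes below are from the count fit. By TPM the falls of Alb, Rbp4 and Ahsg in MM at 1 week were likewise not called (-0.77, -0.10 and -0.09), nor were those of Alb in HM-Wnt at 2 weeks (-0.37, adjusted p = 0.443 by limma) and Ahsg in MM at 2 weeks (-0.22, adjusted p = 0.396).

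Ttr and Rbp4, whose proteins circulate together, did not keep a fixed ratio. Ttr (ENSMUSG00000061808) lies at chr18:20797253-20807467 on the plus strand. Ttr was at 14393, 13262 and 10421 CPM in fresh hepatocytes. It was at 2322, 2628 and 1438 CPM in HM-Wnt after 1 week and at 1023, 1479 and 529.3 after 2 weeks. In MM it was at 3781, 5654 and 498.1 CPM and at 2272, 2033 and 833.0. No cultured library reached a fresh one, and the third library was the lowest in all 4 HepOrg conditions. Ttr fell by 2.63 ± 0.69 (log2, adjusted p = 0.00672) and fell by 3.69 ± 0.72 (adjusted p = 0.0009) in HM-Wnt and fell by 1.94 ± 0.67 (adjusted p = 0.0332) and 2.87 ± 0.70 (adjusted p = 0.00546) in MM. The fall in MM at 1 week lost its call without any 1 of the 3 fresh libraries or without MM library 1 (adjusted p from 0.0501 to 0.0739).

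Rbp4 was at 8046, 9023 and 8269.5 CPM in fresh hepatocytes and at 7224, 12848 and 8087 in HM-Wnt after 1 week, with overlapping groups. It fell by 0.71 ± 0.26 (log2, adjusted p = 0.0443) in MM at 1 week, to 5621, 4498 and 5563 CPM, and by 1.07 ± 0.27 (adjusted p = 0.00626) in MM at 2 weeks, to 2999.7, 4557 and 4464. The call at 1 week was lost whichever of the 6 libraries was left out (adjusted p from 0.0703 to 0.133). In HM-Wnt the changes were 0.10 ± 0.26 and -0.49 ± 0.26 and neither was called (adjusted p = 0.777 and 0.133). Per 100 counts of Rbp4, fresh libraries held 126.0 to 178.9 counts of Ttr, HM-Wnt libraries 12.03 to 32.2 and MM libraries 8.95 to 125.7. STRA6L, the receptor for RBP4 in liver, is encoded by Stra6l, which fell in each HepOrg condition, by 1.46 to 2.11 (log2, adjusted p from 0.00072 to 0.0097).

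Tf took the most counts of all genes in 25 of the 27 libraries. Fresh hepatocytes held 60446, 54789.7 and 59188 CPM, a spread of under 1.2-fold. HM-Wnt HepOrgs held 125544, 209608 and 120294 CPM at 1 week and 104946, 115403 and 80981 at 2 weeks, and the groups did not overlap with fresh hepatocytes. Tf rose by 1.33 ± 0.28 (log2, adjusted p = 0.00144) and by 0.75 ± 0.27 (adjusted p = 0.0339). The second call was lost without any 1 of the 3 fresh libraries or of HM-Wnt libraries 1 and 2 (adjusted p from 0.0655 to 0.112). In MM its changes were 0.27 ± 0.27 and 0.21 ± 0.27 (adjusted p = 0.445 and 0.564), with 95% intervals of -0.26 to 0.80 and -0.32 to 0.74. By TPM, with its higher median gene, Tf was called higher in MM at both times (0.88 and 0.73, adjusted p = 0.000877 and 0.00359 by limma). The hepatocyte iron sensor Tfr2 fell in HM-Wnt by 1.42 and 1.20 (log2, adjusted p = 0.0016 and 0.0043) and in MM at 1 week by 0.82 (adjusted p = 0.04). Tfrc, the general transferrin receptor, was not called.

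Ambp, the precursor that is split into α1-microglobulin and bikunin, and Ahsg showed small changes. Ambp was at 3838, 4147 and 2778 CPM in fresh hepatocytes and at 6899.5, 6468 and 7157 in HM-Wnt after 1 week. It rose there by 0.88 ± 0.29 (log2, adjusted p = 0.022), a call lost without fresh library 3 or HM-Wnt library 3 (adjusted p = 0.0831 and 0.0534). Its fitted changes in the other HepOrg conditions were 0.44, 0.67 and 0.66, with adjusted p of 0.215, 0.0787 and 0.0881, and it was called in all 3 by TPM (1.26, 1.25 and 1.16). Ahsg was at 13793, 12376 and 12655 CPM in fresh hepatocytes and overlapped with HM-Wnt at both times, where it was called higher only by TPM (0.75 and 0.95), as was Rbp4 at 1 week (0.59). In MM it was at 10196, 8332 and 6045 CPM and at 8741, 8213 and 6417, below every fresh library. It fell there by 0.67 ± 0.25 (log2, adjusted p = 0.0459) and by 0.72 ± 0.25 (adjusted p = 0.0371). Without 1 library these calls were lost in 5 of 6 cases at 1 week, all but MM library 1 (adjusted p from 0.0622 to 0.171), and in 6 of 6 at 2 weeks (0.0503 to 0.159).

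Counted over the set, 3 members rose and 2 fell in HM-Wnt at 1 week, 2 rose and 3 fell at 2 weeks, and 1 rose and 5 or 4 fell in MM at 1 and 2 weeks. Among all genes 24.9% rose and 24.8% fell, 26.1% rose and 25.7% fell, 21.5% rose and 21.3% fell, and 19.7% rose and 20.0% fell, in the same order. The median log2 change of the 8 was 0.17, -0.18, -0.67 and -0.63, beside medians over all genes from -0.01 to 0.03. The 4 comparisons share the same fresh libraries. With 39.7% to 51.8% of all genes called, a count of 5 or 6 of 8 is not a result about these genes. Afp and Ttr were called in all 4 comparisons, Alb and Gc in 3. Without the third fresh library, whose labels differ, 6 calls were lost: Ambp in HM-Wnt at 1 week (0.75, adjusted p = 0.0831), Tf in HM-Wnt at 2 weeks (0.77, adjusted p = 0.067), Ttr, Rbp4 and Ahsg in MM at 1 week (-2.05, -0.71 and -0.67, adjusted p = 0.0501, 0.0944 and 0.0922) and Ahsg in MM at 2 weeks (-0.71, adjusted p = 0.08).

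**Figure D2:**
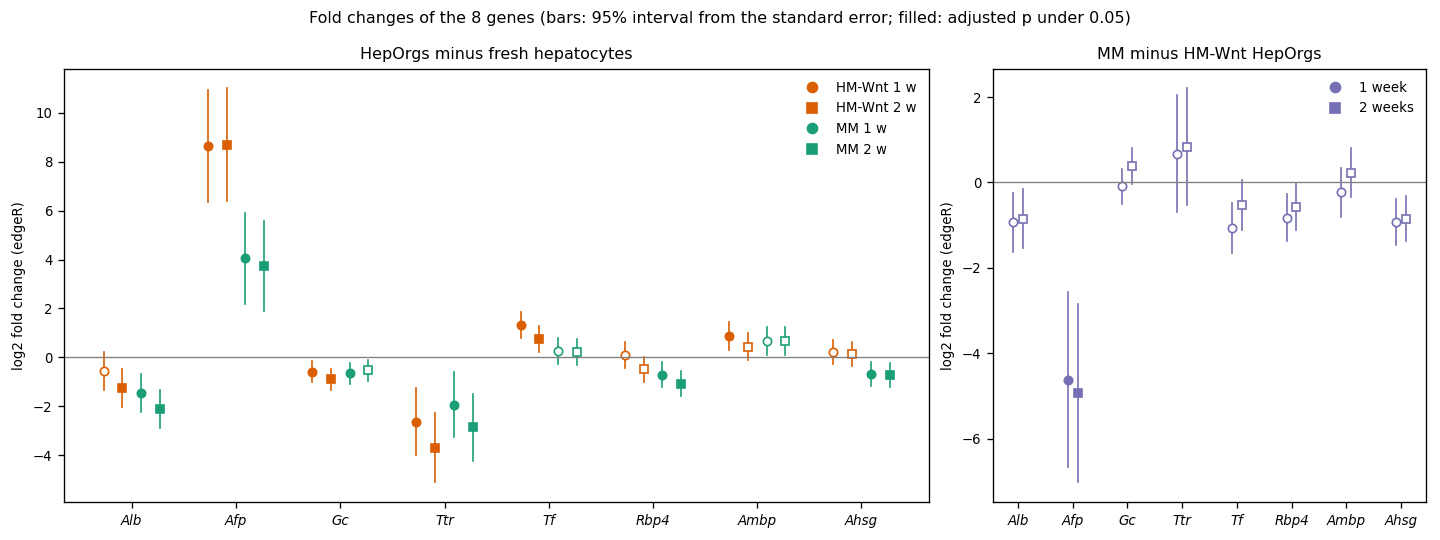
Left, log2 fold changes of the 8 genes in HepOrgs against fresh hepatocytes; right, in MM against HM-Wnt HepOrgs of the same age. Points are edgeR estimates from 3 libraries per group, bars their 95% intervals and filled points an adjusted p under 0.05: Afp rises by 3.75 to 8.69 and Ttr changes by -1.94 to -3.69 in all 4 comparisons on the left, and only Afp is filled on the right.

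Between the media, other members were lower in MM without passing the test. At 1 week Alb, Tf, Rbp4 and Ahsg differed by -0.93, -1.07, -0.82 and -0.93 (log2) with adjusted p of 0.154, 0.0704, 0.121 and 0.0813, and their libraries did not overlap; with Afp that is 5 of 8, where 12.4% of genes were lower without overlap. At 2 weeks Alb, Tf and Ahsg differed by -0.85, -0.53 and -0.84 (adjusted p = 0.137, 0.273 and 0.0653). Libraries with the same replicate number deviated together among HepOrgs, so the fit was repeated with the number as a block. In that fit, beside Afp, Alb, Tf and Ahsg fell at 1 week, by 0.89, 1.05 and 0.95 (adjusted p = 0.0359, 0.0186 and 0.0205), and Alb and Ahsg at 2 weeks, by 0.89 and 0.86 (adjusted p = 0.0194 and 0.015). No share over all genes is given for the blocked fit, so its calls are a description. Gc, Ttr, Rbp4 and Ambp were called in neither fit at either time. Over both times the 95% intervals of the unblocked fit lay between -0.51 and 0.80 for Gc, between -0.69 and 2.20 for Ttr and between -0.81 and 0.80 for Ambp. For Rbp4 they left out 0, from -1.37 to -0.27 at 1 week and from -1.11 to -0.02 at 2 weeks. Rbp4 was called lower by DESeq2 at 1 week (adjusted p = 0.0312) and by limma on TPM at 2 weeks (adjusted p = 0.0397).

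Between 1 and 2 weeks none of the 8 was called in either medium, where edgeR called 0 genes in HM-Wnt (0.0%) and 2 in MM (0.0154%), and DESeq2 13 and 308. At an unadjusted p under 0.05 there were 1134 genes in HM-Wnt and 1337 in MM, none of them a member. In HM-Wnt 4 of 8 were lower at 2 weeks without overlap (Alb, Tf, Rbp4 and Ambp), as were 7.31% of all genes. Compared by replicate number, Alb, Gc, Ttr, Tf, Rbp4 and Ambp were lower at 2 weeks in 3 of 3 pairs in HM-Wnt, and Alb in 3 of 3 in MM. With the number as a block still no member was called, with adjusted p from 0.202 to 0.89 in HM-Wnt and from 0.182 to 0.994 in MM. At an unadjusted p under 0.05 there were then 4 members in HM-Wnt, Alb (-0.70), Ttr (-1.19), Tf (-0.56) and Rbp4 (-0.58), and in MM Alb (-0.70). No share over all genes is given for the pairs or for the block, so these counts are a description. The difference between the media in their change over time was called for none of the 8 and for 0 of all genes (0.0%) by edgeR, with 951 at an unadjusted p under 0.05, and for 43 genes by DESeq2.

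Other carriers made by hepatocytes were read beside the 8. Of 18 such genes, 4 rose and 7 fell in HM-Wnt at 1 week, 4 rose and 8 fell at 2 weeks, 4 rose and 6 fell in MM at 1 week and 6 rose and 5 fell at 2 weeks. Among all genes 24.9% rose and 24.8% fell, 26.1% rose and 25.7% fell, 21.5% rose and 21.3% fell, and 19.7% rose and 20.0% fell, in the same order. The counts of 4 are near these shares and the larger counts lie above them. With 18 genes they are given as a description. The medians were -0.08, -0.79, 0.24 and 0.51 (log2). Serpina7, which encodes thyroxine-binding globulin, rose most in HM-Wnt at 1 week, by 5.35 (adjusted p = 4.3e-07), followed by the acute-phase protein gene Orm2 with 4.94 (adjusted p = 0.0018). Serpina6, encoding corticosteroid-binding globulin, fell by 4.88 (adjusted p = 0.0011), and Itih1, whose product pairs with bikunin from Ambp, fell by 3.69 (adjusted p = 0.00014). Thus the thyroxine carriers Ttr and Serpina7 changed in opposite directions in each HepOrg condition: Serpina7 rose by 4.69 to 6.14. Afm, the fourth gene of the albumin family, fell in all 4, with log2 changes of -1.38 to -3.07 (adjusted p from 8.9e-05 to 0.01). In MM against HM-Wnt at 2 weeks 7 of the 18 rose and none fell, where 6.84% of all genes rose, with a median of 1.28 beside -0.02 over all genes. The heme carrier Hpx was among the 7, with 2.48 (adjusted p = 0.023), and Serpina6 rose most, by 4.70 (adjusted p = 0.012).

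Genes active in fetal liver were read beside Afp. Of 10 listed, 6 were tested, and all 6 rose in HM-Wnt at both times and in MM at 1 week, while 5 rose in MM at 2 weeks. Among all genes 24.9%, 26.1%, 21.5% and 19.7% rose in these conditions. The list's median log2 change was 3.9 and 4.1 in HM-Wnt and 4.3 and 4.7 in MM, where Afp rose less than in HM-Wnt. Between the media the list's median was -0.03 at 1 week and -0.56 at 2 weeks. Genes near 0 in fresh hepatocytes pass the count filter only where culture holds them. The listed genes summed to 1.78 to 3.37 CPM in fresh hepatocytes. Their counts and their changes against fresh hepatocytes are therefore a description. Gpc3, which encodes the oncofetal surface protein glypican-3, was called higher in all 4 HepOrg conditions. Its log2 change against fresh hepatocytes was 10.86 and 10.98 in HM-Wnt and 8.26 and 6.41 in MM. Between the media it fell by 2.62 (adjusted p = 0.037) at 1 week and by 4.55 (adjusted p = 0.0019) at 2 weeks, and it was the only one of the 6 called there. Cd24a, also called higher against fresh hepatocytes in all 4, rose by 7.30 to 8.11.

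Of 14 genes for factors that bind these promoters or silence Afp, 13 fell and none rose in HM-Wnt at 1 week, when 24.8% of all genes fell. At 2 weeks 8 fell and 1, Cebpb, rose, and in MM 10 and 8 fell and none rose, where 25.7%, 21.3% and 20.0% of all genes fell. The median in HM-Wnt at 1 week was -1.14 (log2) beside 0.02 over all genes. Cebpa fell by 3.38 (adjusted p = 9.7e-08) and Hnf4a by 1.05 (adjusted p = 0.0014). Zhx2 and Zbtb20, both known repressors of Afp in adult liver, fell by 0.53 and 1.09 (adjusted p = 0.042 and 0.00061) at 1 week and by 0.87 and 1.45 (adjusted p = 0.0026 and 6.3e-05) at 2 weeks. In MM against HM-Wnt none of the 14 was called at 1 week, where 2.98% of all genes were, and their median was 0.06 (log2). At 2 weeks 3 of the 14 rose, where 6.84% of all genes rose: Zhx2 by 0.91 (adjusted p = 0.012), Nr5a2 by 0.79 (adjusted p = 0.043) and Cebpa by 0.69 (adjusted p = 0.035). Zhx2 stood at 16.8, 20.7 and 19.4 CPM in MM and at 11.97, 9.20 and 10.4 in HM-Wnt at that time. The part of these factors in the level of Afp was not tested.

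Receptors and handling genes for the carriers were tested for 9 of 10 listed. In HM-Wnt 4 fell and 1, the cubilin partner Amn, rose at each time, and in MM 4 fell and 1 rose at 1 week and 2 fell and 1 rose at 2 weeks. Among all genes 20.0% to 25.7% fell, and with 9 genes tested these counts are given as a description. Fcgrt encodes the neonatal Fc receptor, which salvages albumin. It was at 450.2, 324.6 and 420.0 CPM in fresh hepatocytes and at 136.3, 157.6 and 118.4 in HM-Wnt after 1 week. It fell by 1.59 (log2, adjusted p = 0.0007) at 1 week and by 1.79 (adjusted p = 0.00027) at 2 weeks, and rose by 1.22 (adjusted p = 0.025) in MM against HM-Wnt at 2 weeks. Lrat, the retinol-esterifying enzyme of stellate cells, fell by 4.72 to 6.14, and the endothelial markers fell with it in every HepOrg condition, 8 of 8.

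The make-up of the 8-gene sum changed from fresh to cultured cells. As a share of the counts of the 8 genes, Tf took 36.8% to 48.6% in fresh libraries and 60.2% to 76.9% in the 22 cultured libraries that are not low-carrier. Alb took 13.9% to 28.4% in fresh libraries and 3.63% to 13.3% in cultured ones, without overlap. Ttr likewise dropped from a range of 8.55% to 9.62% to one of 0.41% to 4.603%. Ahsg kept overlapping ranges, 8.31% to 10.4% and 5.02% to 10.2%. Counts grow with the length of a transcript, so the order of genes was read per length. Per kb of the canonical transcript Tf had the highest mean in all 9 conditions, followed by Alb in fresh hepatocytes (15229 CPM per kb, against 22614 for Tf) and by Ahsg in HM-Wnt (11321 at 1 week, against 59049 for Tf). Per kb of coding sequence Ttr, whose transcript is mostly noncoding, came first in fresh hepatocytes with 28780.4 CPM per kb, ahead of Tf with 27805, and Tf came first in the other 8 conditions.

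**Figure D3:**
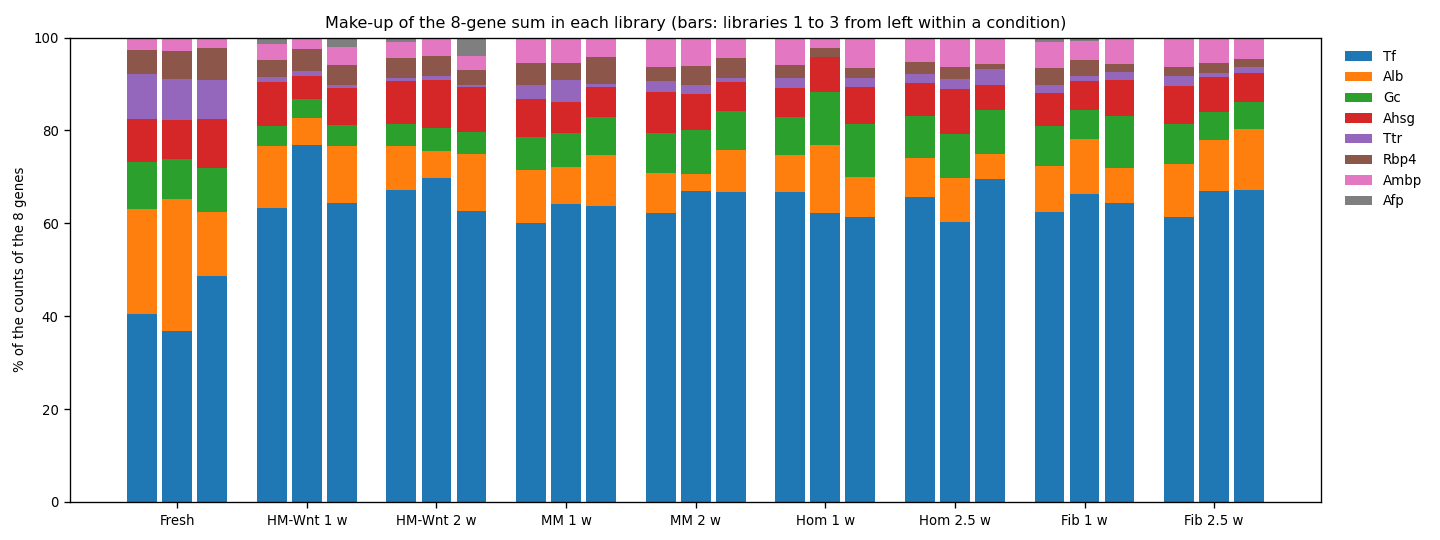
Share of the counts of the 8 genes (percent, y axis) that each gene takes in each of 27 libraries, grouped by condition; the 3 bars of a condition are its libraries. Tf takes 36.8% to 48.6% in fresh libraries and at least 60.2% in every cultured library, while the shares of Alb and Ttr are larger in fresh libraries than in those of HepOrgs.

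With all libraries kept, edgeR called no member in any comparison of assembloids. Fibrotic-like against homeostatic assembloids of 1 week gave log2 differences from -1.60 for Ttr to 1.95 for Afp, with standard errors of 0.98 to 1.79. At 2.5 weeks they ran from -1.26 for Ttr to 0.65 for Afp. In both comparisons edgeR called 0 of 14253 genes (0.0%), with 2012 and 944 at an unadjusted p under 0.05, while DESeq2 called 867 and 273 genes, none of them a member. The intervals are wide, and that for Tf at 1 week reached from -3.23 to 1.20. In simulated libraries with this spread edgeR recovered 0% of 192 genes changed by a log2 fold of 2, so these data could not show a difference of that size with this fit. Without the low-carrier libraries 272 and 463 genes were called and again no member, and the differences at 1 week were -1.73 for Ttr, -1.43 for Gc and 1.93 for Afp (adjusted p = 0.195, 0.152 and 0.161).

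In the libraries themselves, the low-carrier pair carried much of that spread. In homeostatic assembloids of 1 week Tf was at 99801, 2228 and 47964 CPM and Gc at 12149.6, 405.7 and 8919. In fibrotic-like ones Tf was at 29252, 42945 and 5186 CPM and Gc at 4067, 4076 and 902.5. At 2.5 weeks homeostatic libraries were closer, with 67178, 61298 and 86153 CPM of Tf and 9049.9, 9631 and 11800.1 of Gc. Fibrotic-like libraries of that age held 51188, 21740.1 and 76473 CPM of Tf and 7174, 2004 and 6528 of Gc. Gc, Ttr and Ambp were lower in every fibrotic-like than in every homeostatic library at 2.5 weeks. That is 3 of 8 members, where 15.3% of genes were lower without overlap. Mesenchymal markers summed to 1122, 4026 and 4457 CPM in these fibrotic-like libraries and to 175.0, 255.6 and 193.4 in the homeostatic ones, as their seeding differed by design, and hepatocyte markers to 40749, 8236 and 38160 and to 53738, 55623 and 55822. The part of the cell make-up in the carriers' levels was not tested.

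Against MM HepOrgs of 1 week, 6 members did not overlap with fibrotic-like assembloids of 1 week and were lower: Alb, Gc, Tf, Rbp4, Ambp and Ahsg (22.9% of genes were lower without overlap). Their log2 differences lay between -1.42 and -1.95, with adjusted p from 0.663 to 0.802. Afp stood at 411.3 and 537.1 CPM in 2 fibrotic-like libraries and at 17.1 in the low-carrier one, beside 73.1 to 115.9 in MM HepOrgs. Its difference was 1.78 ± 1.93 (log2, adjusted p = 0.882), and without the low-carrier libraries it was 2.31 with an adjusted p of 0.0268. With weights for the quality of each library, Afp was called higher (2.16, adjusted p = 0.00517) and the 7 other members lower (-1.24 to -2.57, adjusted p from 0.00157 to 0.00975), in a fit that called 7541 of 13733 genes. For homeostatic assembloids of 1 week against MM HepOrgs no setting tried called a member, and Rbp4 alone was lower without overlap, as were 13.6% of genes.

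**Figure D4:**
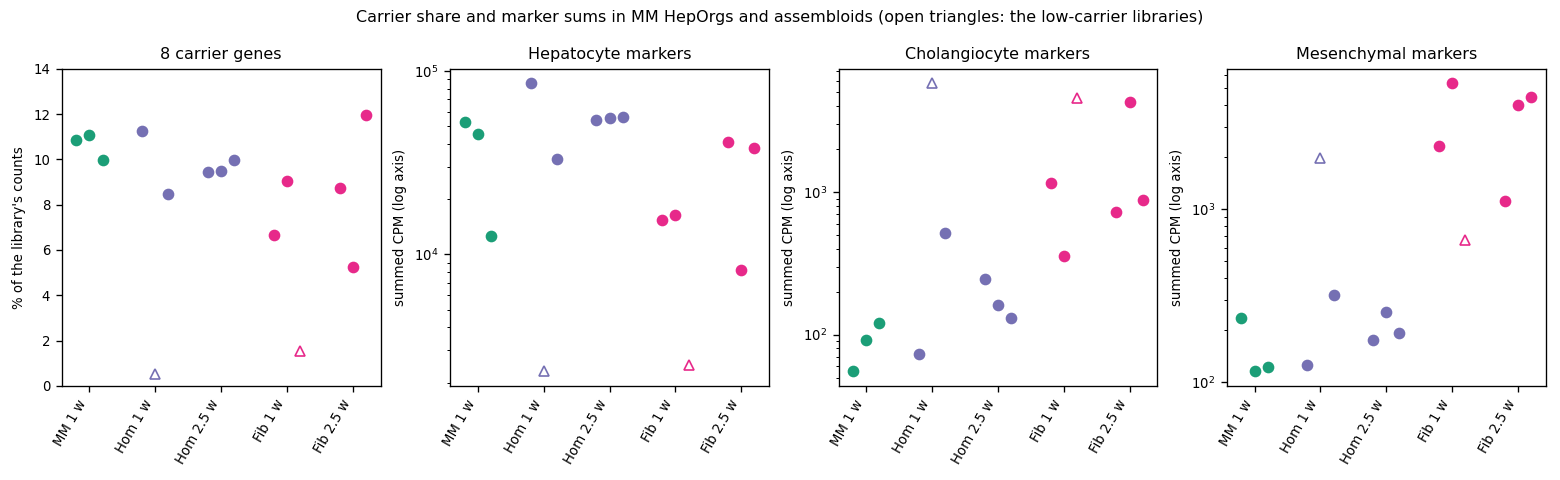
Share of all counts held by the 8 genes (percent, first panel) and summed CPM (log axes) of 8 hepatocyte, 6 cholangiocyte and 9 mesenchymal markers in MM HepOrgs of 1 week and in assembloids; each point is 1 library and open triangles are the low-carrier libraries. The triangles have the lowest carrier shares, 0.544% and 1.54%, and the lowest hepatocyte marker sums, with the highest cholangiocyte sums of their conditions.

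Ordered by mean CPM over the 9 conditions, the members fell into different patterns. Tf, Rbp4, Ambp and Ahsg were highest in HM-Wnt at 1 week, Alb, Gc and Ttr in fresh hepatocytes and Afp in HM-Wnt at 2 weeks. All but Afp were lowest in fibrotic-like assembloids of 1 week, whose mean includes a low-carrier library, and Afp was lowest in fresh hepatocytes. From highest to lowest mean the span was 431-fold for Afp, 23.7-fold for Ttr and 3.62-fold to 7.18-fold for the 6 others. Most neighbours in the order overlapped. Afp split only between its lowest condition, fresh hepatocytes, and the next, MM at 2 weeks. Ttr split only between fresh hepatocytes and MM at 1 week, and no neighbours split for Gc.

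Across the 27 libraries the 7 members other than Afp rose and fell together, with Pearson's r of log2 CPM from 0.75 to 0.95 over 21 pairs. Over the 25 libraries without the low-carrier pair r was 0.24 to 0.83, and over the 12 HepOrg libraries -0.33 to 0.90. Afp's r with the others was 0.19 to 0.64 over 27 libraries and -0.66 to 0.31 over 25. Within HepOrgs its r with Alb was 0.81. Among 3493 well-expressed genes those most like Afp over 27 libraries were Igfbp1 (r = 0.93), Gpc3 (0.90) and Rabif (0.89). The gene most like Alb was Stard10 (0.92), and its family member Afm came next (0.91). Those most like the others were Mst1 for Gc (0.98), Hgd for Ttr (0.98), Kng1 for Tf (0.96), Rgn for Rbp4 (0.94), H2-Q10 for Ambp (0.98) and Rora for Ahsg (0.96). These libraries share conditions, preparations and the low-carrier pair, so r is given as a description.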

How the data were processed

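Bulk RNA-seq of 27 mouse libraries (SMART-seq2 cDNA, Nextera tagmentation, not stranded) was analysed. Per the labels and the study's methods, the authors aligned reads with STAR to GRCm39 and counted them per gene with featureCounts, and deposited counts and TPM (transcripts per 1000000) in 1 table with a length per gene. That length matched the genomic span from start to end, with introns, to 5% for 80.8% of genes, so deposited TPM does not rank genes per transcript length. The table holds 10 further libraries that were not used here.

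Counts were tested with edgeR 4.0.16 (quasi-likelihood test, TMM scaling, filter at 10 counts, prior count 2, Benjamini-Hochberg threshold 0.05) in R 4.3.3: fresh with HepOrgs (15 libraries), HepOrgs (12), assembloids (12) and MM HepOrgs with assembloids of 1 week (9), over 16 comparisons. CPM was scaled over all 27 libraries. Intervals of 95% are the estimate ± 1.96 SE. Levels and shares were described without a test. Depth was 30289364 to 65348596 counts, so only the spread between libraries limits these genes, apart from Afp in fresh hepatocytes (104 to 211 counts) and in 1 library at 0. Alternatives used DESeq2 1.42.0 and limma 3.58.1, the latter on log2(TPM + 1) for genes at 1 TPM or more in 3 libraries. Fits were tested on simulated data: with 200 genes changed by a log2 fold of 2, edgeR recovered 72.2% of those tested in HM-Wnt at 1 week against fresh, 77.4% in MM against HM-Wnt at 1 week and 0% in both assembloid fits. Libraries with the same number deviated together within HepOrgs: 18 of 18 pairs of deviations had r above 0.1 (0.13 to 0.50), against 2 of 36 pairs with different numbers. In the other fits not every such pair did.

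The members and gene lists were chosen with earlier results of these data known. Named genes were all 8 members, up to 2 highest and 2 lowest called genes per list and comparison, receptors beside their carrier, and the genes most like a member by r among those with mean log2 CPM of at least 5; other names, such as those of Afp's repressors and of regulators, were picked after their values were seen.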

Additional observations from a re-analysis of the deposited data

How the results depend on the processing

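Each count of members called was recomputed under DESeq2, RLE scaling, limma on log2(TPM + 1), without the filter, with a block for the replicate number, from the libraries of the 2 groups alone, from 1 fit to all 27 libraries and without each library in turn. Voom with sample quality weights and the fit without both low-carrier libraries were chosen after seeing the data. In all, 948 values of single members kept their direction and side of the threshold, 86 lost a call, 40 gained one and 30 changed sign, none of which was called before or after; the cause was not tested except where named.

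Against fresh hepatocytes the count for HM-Wnt at 1 week was 5, for HM-Wnt at 2 weeks 5, for MM at 1 week 6 and for MM at 2 weeks 5. In 1 fit of all 27 libraries, whose shared spread includes the low-carrier pair, these were 1, 2, 0 and 0. For MM at 1 week it was 3 with no filter and 2 with only the 2 groups. Leaving out 1 library gave 3 to 5 for HM-Wnt at 1 week, 3 to 5 for HM-Wnt at 2 weeks and 2 to 4 for MM at 1 week. For MM against HM-Wnt the count of 1 at 1 week became 5 by DESeq2, 4 with the replicate block and 0 with only the 2 groups or all 27 libraries. At 2 weeks the count of 1 became 2 by DESeq2, 4 by TPM, 3 with the replicate block and 0 with all 27 libraries. Leaving out 1 library gave 0 to 1 at both times. Against fresh hepatocytes the block added Ambp in MM at 1 and 2 weeks (0.64 and 0.65, adjusted p = 0.0282 and 0.0283) and Gc in MM at 2 weeks (-0.54, adjusted p = 0.0212); it ended no call. For fibrotic-like against homeostatic assembloids of 1 week sample weights called 1 member (Gc), and for fibrotic-like assembloids against MM they called 8 and the fit without both low-carrier libraries 1. Tf had the highest mean of the 8 in 8 conditions per coding kb and in 9 per transcript kb or TPM, and 3 members had their highest mean in fresh hepatocytes by CPM and 1, Ttr, by TPM.

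On the log2(TPM + 1) scale the sign changed for Alb in HM-Wnt at 1 week (0.039) and Rbp4 in HM-Wnt at 2 weeks (0.30), for Gc at 1 week (0.015) and Ambp at 2 weeks (-0.10) in MM against HM-Wnt, and, for fibrotic-like against homeostatic assembloids of 1 week, for Alb (0.39), Gc (0.18), Ttr (1.09), Tf (0.47), Rbp4 (0.76), Ambp (0.63) and Ahsg (0.41). For homeostatic assembloids against MM HepOrgs of 1 week it changed without both low-carrier libraries for Afp (0.38), Gc (0.31), Tf (0.059) and Ambp (0.24), and with sample weights for Afp (0.36) and Gc (0.20). Leaving out 1 library changed the sign in that comparison, where Afp ranged from -1.91 to 0.38, Gc from -0.89 to 0.32, Tf from -1.53 to 0.071 and Ambp from -1.24 to 0.25. It did so for Rbp4 in HM-Wnt at 1 week against fresh hepatocytes (-0.17 to 0.26), for Gc (-0.14 to 0.028) and Ambp (-0.37 to 0.020) in MM against HM-Wnt at 1 week, for Alb (-1.35 to 0.24), Tf (-1.62 to 0.017) and Rbp4 (-1.17 to 0.56) in fibrotic-like against homeostatic assembloids at 1 week and for Alb at 2.5 weeks (-0.38 to 0.55). Outside Afp in fresh hepatocytes and in the library where it had 0 counts, depth did not limit these genes. The spread between 3 libraries did.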
